A study of Mus musculus with 2 samples.

Results

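The genes examined here are 46 members of the BMP and TGF-beta signalling pathway, measured by total RNA sequencing of the hindbrain of mouse embryos at day 13.5. They were chosen by symbol from the gene table and comprise 19 ligands, 10 receptors, 8 Smads, 5 antagonists and 4 Id target genes. Of the 46 symbols, 45 matched a row among the 43346 Ensembl genes of the tables, and Gdf1 had no row of its own. Embryos of both sexes, pooled and of strain B6NCrl, gave the tissue, no treatment is stated, and RNA above 200 nt entered 2 libraries at 10 ng each. The labels call the libraries biological replicates 1 and 2 and give them the same donor label, so that their spread may in part be technical. They form 1 group, and the design holds no contrast between conditions.

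Ligands of the family bind paired type I and type II receptor kinases, and the activated type I receptor phosphorylates receptor-regulated Smads, which enter the nucleus with the shared partner Smad4. Most BMP and some GDF ligands signal mainly through Smad1, Smad5 and Smad9, whereas TGF-beta and activin ligands signal mainly through Smad2 and Smad3. In the developing hindbrain, BMP ligands from the roof plate and its choroid plexus derivative pattern the dorsal neural tube, including the rhombic lip.

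Levels are given as TPM, a transcript abundance that divides reads by transcript length and library total, so that genes can be compared with each other. Replicate 1 held 33080194 estimated counts and replicate 2 held 38756411. The deposited credibility intervals surround a posterior mean of TPM and their level is not stated. Detection required at least 1 TPM in each library. Of the 45 members with a row 37 were detected, against 35.4% of all Ensembl genes. The 8 hindbrain factors checked, among them Hoxa2 and Gbx2, were all detected, whereas none of the 8 forebrain factors was. In whole tissue, fewer cells of a type and less RNA per cell cannot be told apart.

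The classes stood in a fixed order in both libraries. The median TPM of the Id genes was 154 in replicate 1 and 173 in replicate 2, that of the receptors 12.7 and 13.2, and that of the Smads 11.2 in each. The antagonists had a median of 2.75 and 3.13 TPM and the ligands of 1.86 and 2.15 TPM in replicates 1 and 2. Expressed as differences of medians on the log2(TPM + 1) scale, the Id genes lay 5.73 ± 0.0148 above the ligands, the receptors 2.18 ± 0.0613 and the Smads 2.02 ± 0.0990 (SD, n = 2). The antagonists lay 0.39 ± 0.00154 above the ligands (SD, n = 2), and among detected members only the sign turned, to -0.27. The 4 Id genes together held 60.1% of the summed TPM of all members in replicate 1 and 62.2% in replicate 2. Members of a class are not replicates, and these differences carry no test.

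**Figure D1:**
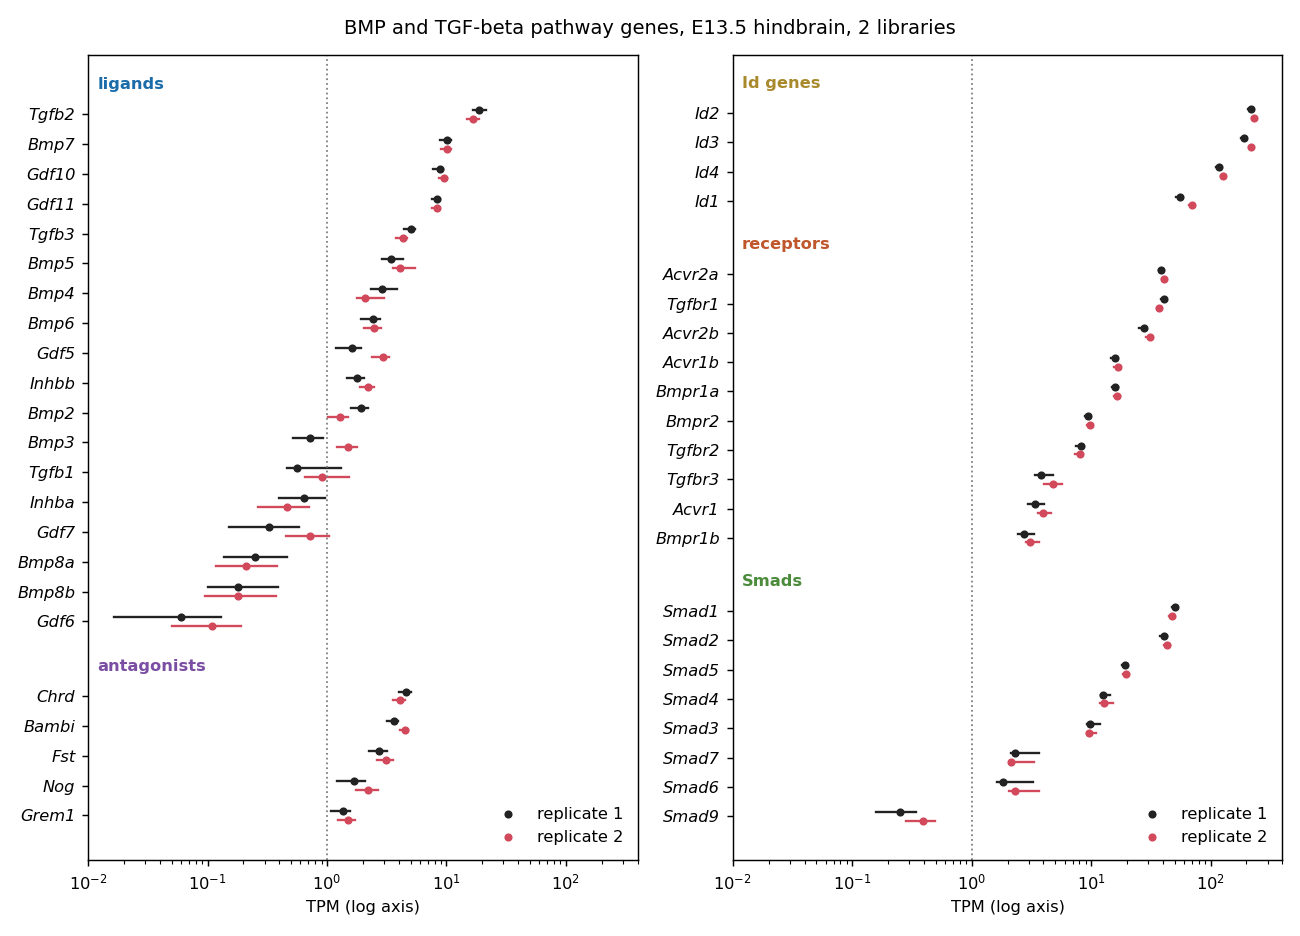
TPM of the 45 pathway genes with a row, by class, on a log axis, with replicate 1 in black and replicate 2 in red. Points are the deposited TPM, horizontal lines the deposited credibility intervals, and the dotted line marks 1 TPM. The Id genes lie above 50 TPM, most receptors and Smads between 2 and 50 TPM, and the ligands extend to below 0.2 TPM.

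Tgfb2, a TGF-beta ligand (ENSMUSG00000039239.10, chromosome 1, 186622792 to 186705989 of mm10), was the ligand with the highest TPM. It had 18.7 TPM in replicate 1 and 16.7 TPM in replicate 2, with intervals of 16.6 to 21.3 and 14.8 to 18.8. Both intervals lay above those of Bmp7, the next ligand. Bmp7, a BMP of the roof plate and choroid plexus, had 10.1 and 10.0 TPM in replicates 1 and 2. Gdf10, a relative of Bmp3, had 8.81 and 9.62 TPM, and Gdf11, an activin-like ligand that limits neuron production, had 8.39 and 8.26 TPM. The intervals of Bmp7 and Gdf10 overlapped in both libraries, and those of Gdf10 and Gdf11 overlapped in replicate 1.

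The place of Tgfb2 depended on which of its transcripts were counted. Of its TPM, 35.3% in replicate 1 and 30.6% in replicate 2 belonged to Tgfb2-205, and 18.6% and 18.2% to Tgfb2-202, both annotated as retained-intron transcripts without a coding sequence. The 2 transcripts are 898 and 744 nt long, and division by so short a length weights them heavily: Tgfb2-205 rested on 109 and 99.4 estimated counts, against 650 and 640 for the main coding transcript Tgfb2-201. Summed over protein-coding transcripts alone, Tgfb2 had 8.10 and 8.52 TPM in replicates 1 and 2, and by mean over the libraries it ranked 4 among the ligands, after Gdf10, Bmp7 and Gdf11. In replicate 2 it was above Gdf11, which had 8.26 TPM. That sum was chosen after the data were seen.

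The coding transcripts of Tgfb2 come with and without an 84-base exon, at chr1:186690721-186690804 of GRCm38 on the minus strand. It is shown because the libraries differed most in its use among the 4 alternative segments examined. Tgfb2-206 includes it and Tgfb2-201 skips it. The exon is in capitals, with 30 bases of the neighbouring exons on each side in lower case.
Tgfb2-206: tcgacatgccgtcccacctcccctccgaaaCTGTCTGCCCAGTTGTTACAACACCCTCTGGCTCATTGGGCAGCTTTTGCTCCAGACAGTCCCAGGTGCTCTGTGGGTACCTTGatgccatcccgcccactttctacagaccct
The length is a multiple of 3, so the exon adds residues to the encoded protein without a shift of frame. Tgfb2-206 had 1.82 TPM in replicate 1 and 3.29 TPM in replicate 2, and Tgfb2-201 had 6.28 and 5.23 TPM. The share with the exon was 22.5% and 38.6% in replicates 1 and 2, or 30.5% ± 11.4 (SD, n = 2). The interval of Tgfb2-206 ran from 0.882 to 2.71 in replicate 1 and from 2.29 to 4.16 in replicate 2, so that the libraries overlapped.

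The remaining TGF-beta ligands were lower. Tgfb3 had 5.01 TPM in replicate 1 and 4.34 TPM in replicate 2, and Tgfb1, whose protein is best known from blood, immune and vascular cells, had 0.56 and 0.90 TPM and was not detected. Tgfb2 held 77.1% and 76.1% of the summed TPM of these 3 ligands in replicates 1 and 2. Among BMP ligands, Bmp5 had 3.45 and 4.08 TPM, Bmp4 2.87 and 2.07 TPM and Bmp6 2.41 and 2.47 TPM in replicates 1 and 2. Between Bmp4 and Bmp6, whose intervals overlapped in each library, the order differed between the libraries. Bmp6 shares 224 exonic bases with Txndc5 on the opposite strand, a gene with 74.7 and 70.4 TPM. Without a stated strand setting for the counting, part of the Bmp6 reads is therefore uncertain.

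Ligands at 1 to 3 TPM followed. Gdf5, a ligand of joint cartilage that acts through Bmpr1b, had 1.63 TPM in replicate 1 and 2.95 TPM in replicate 2. Inhbb, the activin beta B subunit, had 1.79 and 2.22 TPM, and Bmp2 had 1.93 and 1.28 TPM. Bmp3, an atypical BMP that opposes others, passed 1 TPM only in replicate 2, with 0.72 TPM in replicate 1 and 1.51 TPM in replicate 2. Inhba, the activin beta A subunit, had 0.64 and 0.46 TPM.

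The roof plate ligand Gdf7, which specifies dorsal interneurons, was below 1 TPM in each library, with 0.33 TPM in replicate 1 and 0.72 TPM in replicate 2 on 9 and 23 counts. Gdf6 was the lowest ligand with 0.06 and 0.11 TPM, on 4 and 9 counts. Bmp8a had 0.25 and 0.21 TPM, and Bmp8b had 0.18 TPM in each library. Bmp8a and Bmp8b are close copies whose reads the authors' estimate may divide between them, and each rested on 9 to 11 counts. Bmp8b also shares 133 exonic bases with Ppie on the opposite strand, which had 49.5 and 52.5 TPM, and 339 with Gm17244. Along the order of the 18 ligands, 2 of 17 neighbouring pairs had intervals apart in both libraries, and 10 of 17 pairs kept their order.

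Gdf1, a ligand of left-right patterning, could not be given a level. Its gene on chromosome 8 (70329817 to 70331587) lies within Cers1 (70315775 to 70331592), a ceramide synthase gene on the same strand, and shares 1349 exonic bases with it. In the annotation of the deposited tables the locus carried only the Cers1 row, with 20.2 TPM in replicate 1 and 19.7 TPM in replicate 2 on 1078 and 1217 counts. How much of this signal came from the Gdf1 reading frame was not tested.

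The antagonists bind ligands outside the cell, apart from Bambi, a pseudoreceptor without a kinase domain. All 5 were detected, at low levels. Chrd, which sequesters BMPs, had 4.62 TPM in replicate 1 and 4.05 TPM in replicate 2. Bambi had 3.64 and 4.52 TPM, and Fst, which binds activins, had 2.75 and 3.13 TPM. The order of Chrd and Bambi differed between the libraries. Nog, a high-affinity BMP inhibitor, had 1.67 and 2.21 TPM, and Grem1 was lowest with 1.35 and 1.49 TPM.

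All 10 receptors were detected. Acvr2a, a type II receptor for activins and several BMPs (ENSMUSG00000052155.5, chromosome 2, 48814109 to 48903269), had 38.7 TPM in replicate 1 and 40.8 TPM in replicate 2. Tgfbr1, the type I receptor for TGF-beta (ENSMUSG00000007613.11, chromosome 4, 47353222 to 47414931), had 40.7 and 37.3 TPM. Which of them was higher differed between the libraries. Acvr2b, the second activin type II receptor, followed with 27.9 and 31.4 TPM, below both in each library with intervals apart from those of Tgfbr1.

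The type I receptors Acvr1b, for activins, and Bmpr1a, for BMPs, were close to each other. Acvr1b had 16.0 TPM in replicate 1 and 16.7 TPM in replicate 2, and Bmpr1a had 15.8 and 16.5 TPM, with overlapping intervals in both libraries. Bmpr2, the BMP-selective type II receptor, had 9.52 and 9.83 TPM, and Tgfbr2, the type II receptor for TGF-beta, had 8.29 and 8.08 TPM. Tgfbr3, the co-receptor betaglycan, had 3.84 and 4.81 TPM and Acvr1, a further BMP type I receptor, 3.41 and 3.99 TPM. Bmpr1b, a BMP type I receptor of dorsal neural progenitors and cartilage, was lowest with 2.73 and 3.11 TPM. Of 9 neighbouring pairs in this order 5 had intervals apart in both libraries.

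Both Tgfbr2 and Acvr2b were divided between receptor forms, and their alternative segments are shown because these forms differ in the extracellular part of the receptor. In Tgfbr2 the segment is a 75-base exon at chr9:116158271-116158345 of GRCm38 on the minus strand, present in Tgfbr2-202 and skipped in Tgfbr2-201. In Acvr2b it is a 24-base extension at the start of an exon, at chr9:119428201-119428224 on the plus strand, present in Acvr2b-202 and not in Acvr2b-201. Capitals mark the segments and lower case the 30 flanking bases on each side.
Tgfbr2-202: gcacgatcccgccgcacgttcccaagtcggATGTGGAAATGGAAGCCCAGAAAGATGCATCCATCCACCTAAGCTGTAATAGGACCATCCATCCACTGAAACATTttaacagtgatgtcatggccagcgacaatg
Acvr2b-202: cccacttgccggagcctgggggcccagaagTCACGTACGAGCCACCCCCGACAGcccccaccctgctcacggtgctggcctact
Both lengths are multiples of 3.

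The long form of Tgfbr2 had 3.35 TPM in replicate 1 and 2.75 TPM in replicate 2, against 4.94 and 5.33 TPM for the form without the exon. Its share was 40.4% and 34.0%, or 37.2% ± 4.51 (SD, n = 2), and the intervals of the 2 forms overlapped in both libraries. Acvr2b-202 had 16.8 and 19.4 TPM, against 11.1 and 12.0 TPM for Acvr2b-201. Its share was 60.3% and 61.8%, or 61.1% ± 1.07 (SD, n = 2). The intervals of the Acvr2b forms overlapped in replicate 1, at 13.06 to 19.57 and 7.83 to 13.97, and lay apart in replicate 2, at 15.5 to 22.0 and 8.97 to 15.2. The segments were read from a later annotation by transcript identifier. As deposited, the Tgfbr2 forms differ by 75 bases in length, at 4785 nt for Tgfbr2-202 and 4710 nt for Tgfbr2-201. In the later annotation they are 8092 and 3476 nt long. Acvr2b-202 is 1696 nt as deposited and 2093 nt in the later annotation. Whether the deposited models of these forms hold the segments was not tested.

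Receptor-regulated Smads of both branches were detected, apart from Smad9. Smad1, of the BMP branch (ENSMUSG00000031681.10, chromosome 8, 79338395 to 79399518), had 50.3 TPM in replicate 1 and 48.0 TPM in replicate 2. Smad2, of the TGF-beta branch, had 40.7 and 43.2 TPM. Their intervals lay apart in replicate 1 and overlapped in replicate 2. Smad5, of the BMP branch, had 19.2 and 19.5 TPM, and Smad3, of the TGF-beta branch, had 9.77 and 9.64 TPM.

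Smad4, the shared partner, had 12.7 TPM in replicate 1 and 12.8 TPM in replicate 2, between Smad5 and Smad3 with intervals apart from each. The inhibitory Smads, which are themselves induced by the pathway, were low, Smad7 with 2.32 and 2.15 TPM and Smad6 with 1.84 and 2.30 TPM. Smad9, the last of the BMP branch, was not detected, with 0.25 and 0.39 TPM on 27 and 50 counts. Smad1 alone held 72.1% and 70.7% of the summed TPM of Smad1, Smad5 and Smad9 in replicates 1 and 2.

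Smad2 transcripts also differed by an in-frame exon, of 90 bases, within the part of the coding sequence for the DNA-binding domain. Transcripts with the exon, which interferes with direct DNA binding of Smad2, had 31.7 TPM in replicate 1 and 32.4 TPM in replicate 2. Transcripts without it, a form that resembles Smad3 in binding DNA, had 9.02 and 10.8 TPM. The share with the exon was 77.8% and 75.0%, or 76.4% ± 2.04 (SD, n = 2). The intervals of the main transcripts of each kind, 25.1 to 29.7 against 4.98 to 10.5 in replicate 1, lay apart in both libraries. The leading transcript with the exon is 2857 nt in the deposited tables and 8089 nt in the later annotation, so this assignment carries the same limit.

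**Figure D2:**
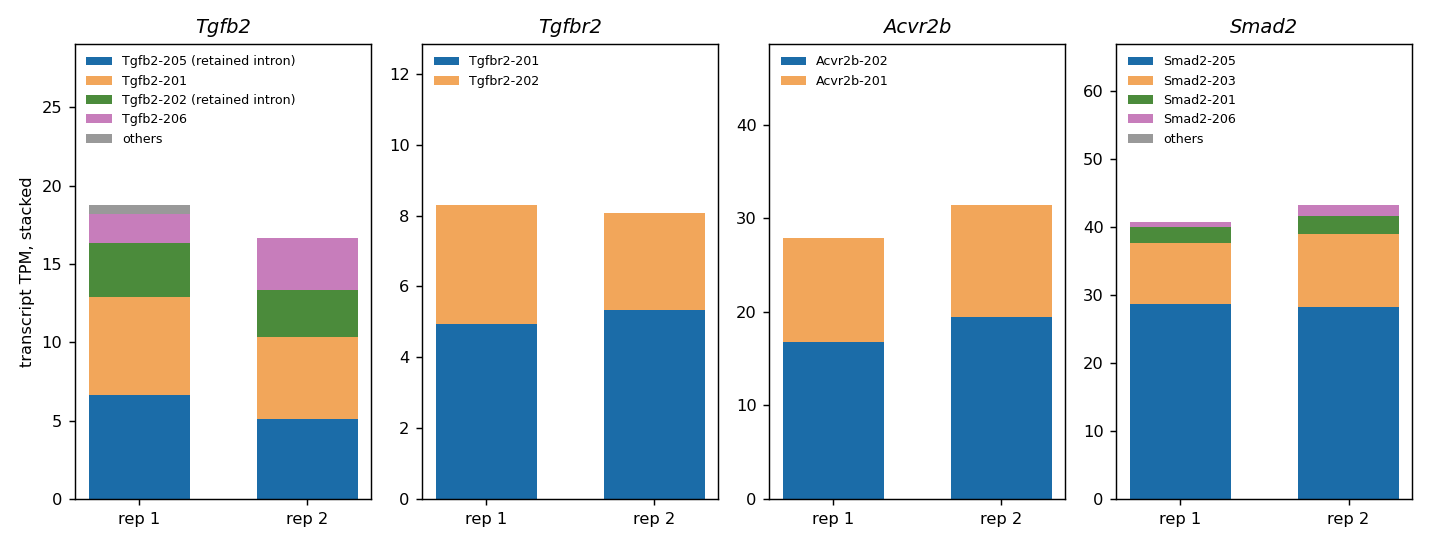
Transcript TPM of Tgfb2, Tgfbr2, Acvr2b and Smad2, stacked, in replicate 1 (left bar) and replicate 2 (right bar) of each panel, with the axis starting at 0. The retained-intron transcript Tgfb2-205 holds 35.3% of Tgfb2 in replicate 1 and 30.6% in replicate 2. Tgfbr2, Acvr2b and Smad2 are divided between coding forms, led in both libraries by Tgfbr2-201, Acvr2b-202 and Smad2-205.

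Other members differed in how far 1 transcript led. Of the 45 members 18 had a single transcript, and of the 27 with more, 25 had the same leading transcript in both libraries. The exceptions were Tgfb2 and Bmp8a. In 14 of the 27 the leading transcript held 90% or more of the TPM in each library. In 5 it held under 70% in each, which were Tgfb2, Tgfbr2, Acvr2b, Bmp8a and Acvr1. The leading form of Acvr1 held 67.3% in replicate 1 and 69.8% in replicate 2, and that of Bmpr1b 66.3% and 78.4%. Coding transcripts held under 80% of the TPM in at least 1 library for 4 members, which were Bmp8b, Tgfb1, Tgfb2 and Tgfbr3. For Tgfbr3 the coding share was 85.4% in replicate 1 and 71.5% in replicate 2, with most of the rest in a retained-intron transcript on 12.9 and 40.7 counts.

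The Id genes encode helix-loop-helix proteins that block proneural factors and are transcribed in response to BMP signals, though other signals regulate them too. All 4 were above every other member in both libraries, Id1 by a small margin over Smad1 in replicate 1. Id2 (ENSMUSG00000020644.8, chromosome 12, 25093799 to 25097140) had 216 TPM in replicate 1 and 232 TPM in replicate 2. Id3 (chromosome 4, 136143497 to 136145755) had 191 and 219 TPM, Id4 (chromosome 13, 48261228 to 48266026) had 118 and 128 TPM, and Id1 (chromosome 2, 152736251 to 152737410) had 56.0 and 70.6 TPM. This order was the same in both libraries, and the intervals of all 3 neighbouring pairs lay apart in each. Id2 stood at rank 680 of all Ensembl genes by mean TPM and Id1 at rank 2776. The deposited TPM of Id2 in replicate 1 lay just above its own interval of 205 to 216, which surrounds the posterior mean of 211.

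Promoter windows of RefSeq (GRCm38.p6, 250 bases before to 50 after the gene start) were searched for GGCGCC, a palindrome so the same on both strands, a GC-rich element that Smad1 and Smad5 complexes can bind. It occurred in 13.4% of the 27025 genes with a window and in 12 of the 32 members with one. Of the 3 Id genes with a window, Id2 and Id4 held it and Id3 did not. The windows of Id2 (chr12:25096043-25096342, minus strand) and Id4 (chr13:48260866-48261165, plus strand) are shown as the matches among the highest members, with the element in capitals.
Id2: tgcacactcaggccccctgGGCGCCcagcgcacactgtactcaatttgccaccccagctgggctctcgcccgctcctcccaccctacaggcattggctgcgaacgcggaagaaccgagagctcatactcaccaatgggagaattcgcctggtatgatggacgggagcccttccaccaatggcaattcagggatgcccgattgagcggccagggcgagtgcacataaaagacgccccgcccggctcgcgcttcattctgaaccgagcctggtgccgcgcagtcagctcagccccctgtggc
Id4: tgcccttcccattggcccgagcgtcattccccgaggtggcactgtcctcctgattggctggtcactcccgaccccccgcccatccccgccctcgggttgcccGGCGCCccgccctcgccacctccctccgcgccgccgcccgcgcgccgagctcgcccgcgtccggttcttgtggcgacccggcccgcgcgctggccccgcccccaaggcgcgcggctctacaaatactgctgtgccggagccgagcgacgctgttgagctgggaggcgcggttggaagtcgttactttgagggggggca
The gene starts of these windows differ from the gene positions given above. By those positions the Id2 window lies inside the gene, and the Id4 window ends before the gene. A match is a description of these letters, not of a bound site.

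The branches of the pathway were compared by summed TPM. Smad1, Smad5 and Smad9 together had 68.8 ± 1.31 TPM, and Smad2 and Smad3 had 51.7 ± 1.68 TPM (SD, n = 2). The log2 ratio was 0.47 in replicate 1 and 0.36 in replicate 2, or 0.41 ± 0.0744 (SD, n = 2). Among type I receptors the balance lay the other way. Bmpr1a, Bmpr1b and Acvr1, of the BMP branch, summed to 22.8 ± 1.17 TPM, and Acvr1b and Tgfbr1, of the activin and TGF-beta branch, to 55.3 ± 1.93 TPM (SD, n = 2). The log2 ratio was -1.37 in replicate 1 and -1.19 in replicate 2, or -1.28 ± 0.125 (SD, n = 2). The 5 type I receptors among the members had 78.7 and 77.6 TPM in replicates 1 and 2, and the 4 type II receptors 84.4 and 90.1 TPM. Acvrl1 and Acvr1c, type I receptors outside the members, were left out of all type I sums. Acvrl1 had 6.38 and 6.91 TPM and Acvr1c 0.18 and 0.50 TPM in replicates 1 and 2.

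Ligands were grouped by name, not by branch. Bmp and Gdf ligands, without Gdf1, summed to 42.3 ± 1.66 TPM, and the 3 Tgfb ligands to 23.1 ± 1.70 TPM (SD, n = 2). The Bmp and Gdf sum holds the activin-like Gdf11, with 8.39 and 8.26 TPM in replicates 1 and 2. It also holds Bmp3, which opposes other BMPs, and the Bmp3 relative Gdf10, with 8.81 and 9.62 TPM. The activin subunits Inhba and Inhbb are in neither sum, so the ligand ratio does not compare the branches. The log2 ratio was 0.88 ± 0.163 (SD, n = 2), and it was 1.57 over protein-coding transcripts, in which the retained-intron share of Tgfb2 is left out. Each of these 4 ratios had the same sign in both libraries, for the genes summed. With Acvrl1 added, type I receptors would lie above type II receptors in replicate 1 and below them in replicate 2. The sign of that ratio thus depends on the genes chosen. All sums are RNA levels in mixed tissue, and which cells carry each gene was not measured.

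**Figure D3:**
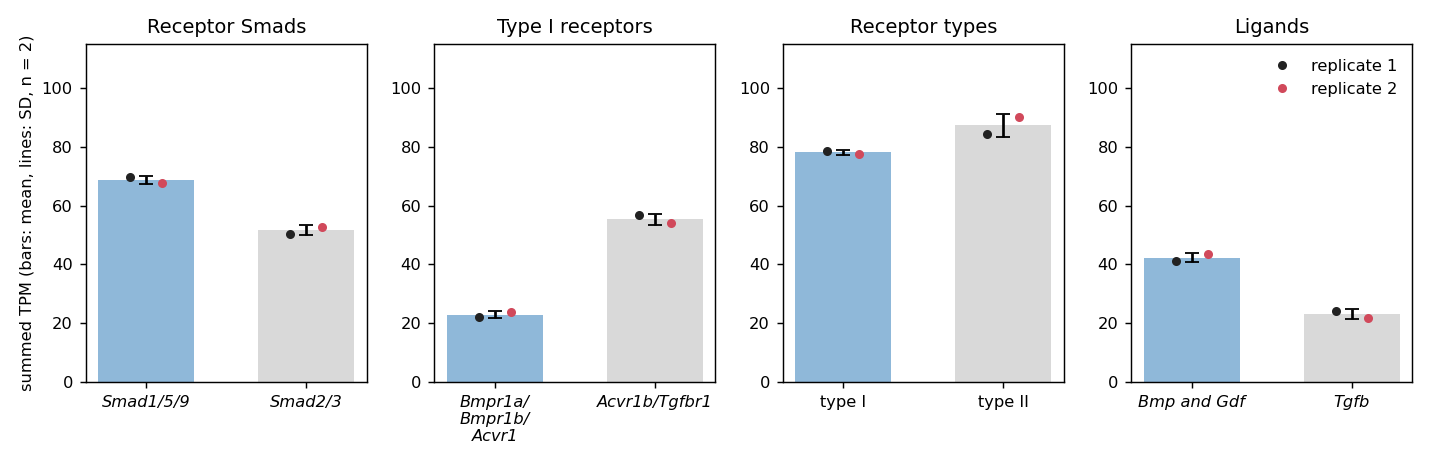
Summed TPM of paired groups of members, for receptor-regulated Smads, type I receptors, receptor types and ligands grouped by name. Bars are means and lines SD over 2 libraries, with points for replicate 1 in black and replicate 2 in red, and every axis starts at 0. The BMP side is higher among Smads (68.8 against 51.7 TPM) and lower among type I receptors (22.8 against 55.3 TPM).

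Library differences were tested per gene with a two-sided exact binomial test on counts, adjusted by Benjamini-Hochberg over the 19687 genes with 10 or more counts in the pair. It compares these 2 libraries and covers counting error only, not the spread between embryos. All 45 members with a row were tested and 11 passed an adjusted p of 0.05, against 12.6% of all genes tested. Of these, 9 were lower in replicate 1 than in replicate 2, against 7.07% of all genes, and 2 were higher in replicate 1, against 5.49%. With the libraries scaled by ERCC spike-in counts instead, 12 of 45 members passed, against 40.4% of all genes tested, and 6 of them were among the 11. The members' share of calls in either direction, above that of all genes with TMM scaling, was thus below it with ERCC scaling. Of the 12, 4 were lower in replicate 1, against 2.82% of all genes, and 8 were higher, against 37.5%. Of all genes called, 6.997% were lower in replicate 1 with ERCC scaling, against 56.3% with TMM scaling. An unadjusted p under 0.05 was reached by 14 members in the exact binomial test, against 24.1% of all genes. Intervals that did not overlap between the libraries were found for 10 members, against 8.07% of all genes tested, with 8 lower in replicate 1, against 3.86%, and 2 higher, against 4.21%. Among detected genes 25 of 37 members had the lower TPM in replicate 1, against 45.2%. The median log2 ratio of replicate 1 over replicate 2 was -0.10 for the members and -0.00431 for all genes tested. The common biological coefficient of variation between the libraries, over all genes, was 6.14% in edgeR.

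All 4 Id genes were lower in replicate 1. Id1 had 56.0 TPM in replicate 1 and 70.6 TPM in replicate 2, a log2 ratio of scaled counts of -0.35 (adjusted p = 1.68e-07, exact binomial test). Id3 followed with 191 and 219 TPM and a log2 ratio of -0.22 (adjusted p = 5.46e-13, exact binomial test). Id4 and Id2 differed less, with log2 ratios of -0.14 and -0.12. Their coefficients of variation over the 2 libraries, 5.88% for Id4 and 4.79% for Id2, were below the common value of 6.14%. Those of Id1 and Id3, 16.4% and 9.69%, were above it. The values of the Id genes come from TPM and include counting error. The common value comes from TMM-scaled counts with counting error removed, so the measures are not alike. Of the 3514 genes that averaged at least 50 TPM, 20.8% were called in either direction and 12.6% were called lower in replicate 1. When the libraries were scaled by their ERCC spike-in counts instead, the median log2 ratio of all detected genes moved to 0.14. Id1 and Id3 were still lower in replicate 1, with smaller ratios of -0.21 (adjusted p = 0.00185, exact binomial test) and -0.08 (adjusted p = 0.0159, exact binomial test), and the ratios of Id2 and Id4 turned to 0.02 and 0.00169.

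Among ligands, Gdf5 and Bmp3 were lower in replicate 1 and Bmp2 was higher. Gdf5, with 75 counts in replicate 1 and 159.7 in replicate 2, had a log2 ratio of -0.87 (adjusted p = 2.62e-04, exact binomial test). Bmp3, with 45 and 111 counts, had a ratio of -1.07 (adjusted p = 3.02e-04, exact binomial test). Bmp2, with 138 and 108 counts, had a ratio of 0.57 (adjusted p = 0.0220, exact binomial test). For all 3 the intervals of the libraries lay apart. Gdf7 had the greatest ratio of a member, -1.09, but on 9 and 23 counts it did not pass (adjusted p = 0.207, exact binomial test). A difference of 1.5-fold or more in TPM was found for 3 of the 38 members that averaged at least 1 TPM, against 5.69% of all such genes, and these were Gdf5, Bmp3 and Bmp2.

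Among receptors and antagonists the differences were smaller. Tgfbr1 was higher in replicate 1, with a log2 ratio of 0.09 (adjusted p = 0.0173, exact binomial test). Acvr2b and Acvr2a were lower, with ratios of -0.19 and -0.10 (adjusted p = 0.0252 and 0.00962, exact binomial test), and the intervals of Acvr2a overlapped. Bambi was lower in replicate 1 with a ratio of -0.33 (adjusted p = 0.00775, exact binomial test). With ERCC scaling the ratio of Tgfbr1 was 0.24, that of Acvr2a turned to 0.04, and those of Acvr2b and Bambi no longer passed. None of the 8 Smads passed the exact binomial test, and none had an unadjusted p under 0.05. The exon overlaps with Orc4, on the opposite strand, for Acvr2a (446 bases) and with Gm15557 for Gdf5 (936 bases) leave part of their reads uncertain, since the strand setting of the counting is not given in the sources used here.

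**Figure D4:**
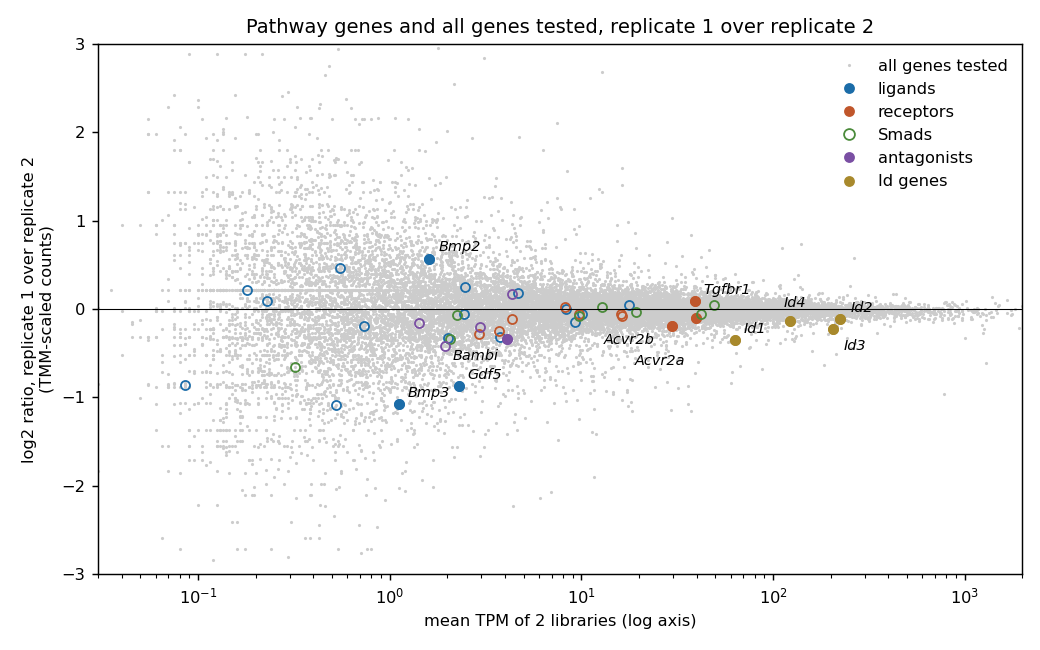
Log2 ratio of scaled counts, replicate 1 over replicate 2, against mean TPM on a log axis, for all genes tested (grey; a few beyond the vertical limits are not drawn) and the 45 pathway genes (coloured by class). Filled circles passed the exact binomial test at an adjusted p of 0.05 and are named, and open circles did not. The 4 Id genes lie below 0, from -0.12 to -0.35.

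Other genes moved between the libraries as well, here with TMM scaling, under which 12.6% of all genes tested passed. The marker calls below were not repeated with ERCC scaling, which moved the median log2 ratio of detected genes to 0.14. The summed TPM of 8 choroid plexus markers was 662 in replicate 1 and 1225 in replicate 2, with 8 of 8 lower in replicate 1, none at 0, and 7 past the exact binomial test. That of 8 roof plate markers was 50.1 and 80.8 TPM, with 7 of 8 lower, 3 past the test and none at 0. That of 9 meningeal and mesenchymal markers was 756 and 584 TPM, with 9 of 9 higher in replicate 1, 5 past the test and none at 0. That of 6 cartilage markers was 126 and 113 TPM, with 5 of 6 higher in replicate 1, 4 of them past the test, and Sox9 lower. Microglial markers were lower in replicate 1 in 6 of 6 cases, with 98.5 and 117 TPM summed. Those of erythroid cells summed to 11415 and 12308 TPM, with 5 of 6 lower in replicate 1. The 6 neural progenitor markers summed to 2615 and 2870 TPM, of which Fabp7 alone had 1787 and 2042 TPM. Sox2, Vim, Fabp7 and Pax6 were lower in replicate 1 and Nes and Hes5 higher, all past the test. Neuronal markers summed to 3649 and 3487 TPM, with 4 of 6 past the test, all higher in replicate 1. The 8 hindbrain factors summed to 210 and 226 TPM, with 6 lower in replicate 1, of which Hoxb2, Hoxb3, Hoxd3 and Hoxb4 passed. Sensory ganglion markers summed to 193 and 206 TPM, with 2 of 6 past the test, both lower in replicate 1. Endothelial markers summed to 159 and 167 TPM, with 1 of 6 past the test, lower in replicate 1. The part of these cell types or of the dissected region in the differences of the 11 members was not tested.

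Other genes of the pathway were taken from a list of 51, of which 50 had a row and 32 were detected. The 5 highest by mean TPM were modulators or targets. Fstl1, a secreted follistatin-like protein, had 110 TPM in replicate 1 and 104 TPM in replicate 2. Rgmb, a BMP co-receptor, had 65.5 and 70.6 TPM, and Twsg1, a secreted BMP-binding protein, had 45.8 and 47.2 TPM. Msx1, a homeobox target of BMP signals in dorsal neural tissue, had 23.3 and 48.4 TPM, and Nbl1, a secreted BMP antagonist, had 33.3 and 36.7 TPM. Msx1 was among the 5 by its level in replicate 2, and in replicate 1 it was below Skil, a repressor of Smad signalling, with 27.3 TPM. Each of the 5 was thus above every secreted antagonist among the members, of which Chrd was the highest. Gdf2 and Bmp10, circulating ligands, had no count in either library, which allows up to 0.0503 and 0.0426 TPM for Gdf2 and 0.119 and 0.101 TPM for Bmp10 at 3 counts in replicates 1 and 2.

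Between the libraries 7 of the 42 listed genes that could be tested passed, all with intervals apart, against 7.18% of all genes that passed both. Lower in replicate 1 were Msx1, with a log2 ratio of -1.08 (adjusted p = 2.51e-81, exact binomial test), Sostdc1, a BMP and Wnt inhibitor, with -0.93 (adjusted p = 1.42e-20, exact binomial test), Rgmb with -0.13, and Sost on 1 and 16 counts. Higher in replicate 1 were Chrdl1, a BMP antagonist, with 0.75 (adjusted p = 3.18e-06, exact binomial test), Tgfbi, a TGF-beta-induced matrix protein, with 0.34, and Bmp1, a protease that cleaves chordin and procollagens, with 0.23. Msx1 is also in the roof plate list above. These 7 calls rest on TMM scaling and were not repeated with ERCC scaling. A member ratio near that of Rgmb, -0.14 for Id4, turned to 0.00169 with ERCC scaling.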

How the data were processed

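Per the notes deposited with the files, alignments were to mm10 and the annotation was M4, read here as GENCODE M4. The authors deposited expected counts (estimated, not whole numbers), TPM and FPKM per gene and transcript, and the percent of a gene's TPM per transcript. The bounds of credibility intervals, read here as a signal on the TPM or FPKM scale, were also deposited by the authors. The aligner, the counting program and whether counting used strand: not given in the sources used here. Symbols and positions came from GENCODE M21 (GRCm38), matched by identifier for 42462 of 43346 Ensembl genes.

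Levels are the deposited TPM, as mean and SD over 2 libraries. Expected counts were rounded, scaled by TMM (edgeR 4.0.16, R 4.3.3) and tested by an exact binomial test (SciPy 1.17.1) because 1 group of 2 libraries leaves no contrast for a quasi-likelihood test. DESeq2 1.42.0 gave other size factors. On simulated counts of the 19687 genes, the test called 78.0% of 100 genes changed 2-fold, 41.0% of 100 changed 1.2-fold and 5 of 19487 unchanged genes. Those 5 do not give the rate of false calls between the real libraries. There the spread beyond counting was 6.14% and 12.6% of genes tested were called. Spike-ins held 2.31% and 2.54% of the counts. Intervals and floors cover counting and quantification error only, since each is given within 1 library. These reads carry no molecular identifiers. Members and lists were chosen with earlier results of these data known. The rule for named genes covered the 3 highest and the lowest member of each class, undetected members, members past a comparison and members with overlaps or near copies; values of all others with a row are given as well. Of other pathway genes it took the 5 highest and those past the test with intervals apart. Alternatives were other scalings, filters, units, pseudocounts, each library alone and, added after the data were seen, protein-coding transcripts only.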

Additional observations from a re-analysis of the deposited data

How the results depend on the processing

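No paired analysis was possible because the libraries form 1 group. The number of members detected was 20 at a TPM of 5, and 35 to 39 under the other settings. On the log2 scale, the median differences from the ligands, for receptors, Smads, antagonists and Id genes, were 2.59, 2.42, 0.53 and 6.24 with a pseudocount of 0.1, which understates low genes less. With FPKM they were 1.98, 1.82, 0.33 and 5.48, and with CPM, not divided by length, 3.15, 2.75, 0.27 and 4.99. As means they were 1.99, 1.57, 0.19 and 5.39, and over detected members only, which drops low ligands, 1.51, 1.53, -0.27 and 5.07. With the posterior mean the antagonists gave 0.35 and the Id genes 5.68, and over protein-coding transcripts the Id genes gave 5.69. Each library alone gave 2.13 to 2.22, 1.95 to 2.09, 0.39 and 5.72 to 5.74 for the 4 classes, and 37 to 38 detected members.

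With CPM the log2 ratio of the Smad branches was 0.93 and that of Bmp and Gdf over Tgfb ligands 1.05. The ligand ratio was 1.57 over protein-coding transcripts, an alternative chosen after seeing the data. Each library alone gave 0.36 to 0.47 for Smads, -1.37 to -1.19 for type I branches and 0.76 to 0.99 for ligands. For type I over type II receptors among the members it gave -0.22 to -0.10. ERCC scaling called 7946 genes, or 40.4% of those tested, against 12 of 45 members. For calls in either direction the members thus no longer exceeded the background. It called 4 rather than 9 members lower in replicate 1, against 2.82% of all genes; the ratios of Acvr2a, Id2 and Id4 turned to 0.0442, 0.0240 and 0.00169. It also moved the share of calls lower in replicate 1 to 6.997%, against 56.3%. The other scalings and filters called the same 11 members. The median gene-wise dispersion of DESeq2 lay at the lower limit of that estimate, which corresponds to a coefficient of variation of 0.01%. It is therefore not a measure of spread to set against the 6.14% of edgeR. Fold changes of members with few counts, such as Gdf6 on 4 and 9, are limited by depth.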
